A study of Mus musculus with 81 samples.

Results

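The CDR3s described here were TCRβ receptor sequences that carried a hydrophobic residue at both position 6 and position 7 of the CDR3. The rule for members used the sequence alone, and was set with earlier results of these data known. A member was an in-frame rearrangement whose CDR3 had 12 to 16 residues, counted from the first cysteine as position 1, with phenylalanine, isoleucine, leucine, methionine, valine, tryptophan or tyrosine at both positions. Over 81 libraries, 3563 of 349297 in-frame entries of that length were members (an entry is 1 nucleotide rearrangement in 1 library). They held 4935 of 567406 templates and comprised 3485 distinct nucleotide rearrangements and 2986 distinct CDR3s. Of the member entries, 3087 came from 66 blood libraries and 476 from 15 tumor libraries. Totals left out the CDR3 of the transferred OT-1 cells (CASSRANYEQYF) and the CDR3 of the lymphoma clone (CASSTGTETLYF), neither of which is a member.

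All libraries came from genomic DNA of B6.SJL-Ptprc<a> Pepc<b>/BoyJ (Pep Boy) mice, which the methods describe as female and whose ages were not given in the sources used here. All mice received naive OT-1 cells, CD8+ T cells with a transgenic receptor for the ovalbumin peptide OVA, and EG7.OVA, a lymphoma line that expresses ovalbumin and derives from EL4. In the treatment experiment, 15 tumor-bearing mice received 1e6 OT-1 cells and then, on days 0 and 3, either 1e9 unmodified mouse red blood cells (mRBC-CTRL) or mouse red blood cells carrying OVA on MHC class I, 4-1BBL and IL-12 (mRBC-OVA-4-1BBL-IL-12). The latter were given as 2.5e8 or as 1e9 cells, with 5 mice in each arm. Blood was taken minutes after OT-1 transfer on day 0, and blood and tumor on day 7. Not analysed here were mRBC-CTRL mouse 1 on day 7, for its blood alone, and the pretreatment blood of 1e9 mouse 1. In the rechallenge experiment, 7 mice that had been cured of EG7.OVA after a transfer of 1e6 OT-1 cells and 2.5e8 of the cells carrying OVA, 4-1BBL and IL-12 were challenged again with EG7.OVA on day 66 and with EL4 on day 127, and 5 naive mice received 5e5 OT-1 cells and their first EG7.OVA challenge. Their blood was taken on days 65 and 73 and, for cured mice, days 126 and 136. DNA of blood or of a whole tumor suspension does not tell CD4+, CD8+ and regulatory T cells apart, and a share can change because members or other rearrangements changed in number.

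The CDR3 of the β chain is made where a V, a D and a J segment are joined, with bases trimmed from the segment ends and untemplated (N) bases added between them. Its middle residues lie over the peptide bound to MHC. Hydrophobic residues at positions 6 and 7 are known to favor recognition of self peptides, and receptors that carry them are known to be more frequent before thymic deletion and among regulatory T cells than in the conventional repertoire. The D2 segment, TCRBD02-01, can be read in frames that encode tryptophan or leucine, while the frames of TCRBD01-01 mainly encode polar residues and glycine.

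The 8 rearrangements below show how members are built. Each was the largest member of 12 to 14 residues, by percent of templates, in the tumors or day 7 blood of an arm or in the blood of cured or naive mice. Each line is the deposited sequence read from 5′ to 3′, with the codons of positions 6 and 7 in capitals. In the first, a stop codon before the CDR3 is also in capitals.
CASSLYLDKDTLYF: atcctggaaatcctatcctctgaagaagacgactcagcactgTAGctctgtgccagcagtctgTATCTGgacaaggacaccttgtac
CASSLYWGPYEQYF: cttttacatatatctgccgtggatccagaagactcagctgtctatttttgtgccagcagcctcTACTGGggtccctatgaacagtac
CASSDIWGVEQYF: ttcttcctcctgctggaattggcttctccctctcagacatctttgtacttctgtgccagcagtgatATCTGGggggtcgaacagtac
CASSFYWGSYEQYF: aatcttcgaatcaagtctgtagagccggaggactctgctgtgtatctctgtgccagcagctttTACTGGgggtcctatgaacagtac
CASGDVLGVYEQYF: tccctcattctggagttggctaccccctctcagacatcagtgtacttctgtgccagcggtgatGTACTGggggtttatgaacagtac
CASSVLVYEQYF: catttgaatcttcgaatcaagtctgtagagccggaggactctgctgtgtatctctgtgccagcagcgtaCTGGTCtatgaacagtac
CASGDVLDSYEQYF: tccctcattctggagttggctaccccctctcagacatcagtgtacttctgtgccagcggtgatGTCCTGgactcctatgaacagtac
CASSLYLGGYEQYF: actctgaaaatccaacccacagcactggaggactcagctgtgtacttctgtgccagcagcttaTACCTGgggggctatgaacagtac

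In 6 of these 8, position 7 was written by D bases alone, and TGG, the codon of tryptophan, or CTG, a codon of leucine, stood there in 7. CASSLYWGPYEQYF (TCRBV05-01, TCRBJ02-07) and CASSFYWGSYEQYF (TCRBV04-01, TCRBJ02-07) came from different mice and V segments and had the same pair of codons, TAC and TGG. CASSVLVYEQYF (TCRBV04-01, TCRBJ02-07) was the exception at position 7, with a valine codon made of 1 base each of D, N and J.

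Depth limited what could be seen of so rare a class. In-frame templates numbered 2355 to 77041 per library, and templates counted for the shares 455 to 22638. In-frame templates are called productive here, although some carry a stop codon before the CDR3. A library held 3 to 175 member rearrangements. The shares of single libraries are given with 95% Wilson intervals where named, and these cover counting error only. The day 7 blood of 1e9 mouse 5 was the smallest library, with 455 templates and 3 member rearrangements.

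Few residue pairs accounted for most members. Tyrosine-tryptophan was the most used pair, in 475 rearrangements (13.4% of members), followed by valine-tryptophan (12.8%), valine-leucine (12.2%), leucine-leucine (8.24%), tryptophan-valine (6.18%) and leucine-tryptophan (5.00%). At position 7, tryptophan was the residue of 36.1% of blood members and 43.7% of tumor members. It stood there in 4.88% and 7.35% of all rearrangements of the 2 tissues. The rule admits only hydrophobic residues, so a higher percentage in members follows from the rule. As a mean over libraries, any hydrophobic residue stood at position 7 in 14.4% of blood and 17.1% of tumor rearrangements. Tyrosine-tryptophan made up 12.6% of blood members and 18.5% of tumor members. These percentages pool mice and are a description without a test.

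The positions drew on different parts of the junction. In the blood, where each rearrangement was counted once per mouse (3066 members and 317930 others), position 7 held at least 1 D base in 81.5% of members and 83.7% of others. Position 6 held at least 1 N base in 86.2% of members and 43.4% of others, and was written by D bases alone in 10.9% and 45.7%. The D segment reached position 7 in 98.5% of the valine-tryptophan members and in 99.6% of the tyrosine-tryptophan members. The V segment reached position 6 in 67.6% of the valine-tryptophan members and 72.7% of the valine-leucine members, against 11.6% of the tyrosine-tryptophan members. The pairs differed in which segment wrote position 6, while tryptophan at position 7 had a D base in 98.6% of members.

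A hydrophobic residue at 1 of the positions was common, and at both it was rare. In blood libraries, 11.8% ± 0.777 (SD, n = 66) of rearrangements had one at position 6, 14.4% ± 0.699 at position 7 and 0.972% ± 0.168 at both. The product of the single-position shares was 1.71% ± 0.154. In tumor libraries the values were 14.98% ± 1.29 (SD, n = 15), 17.1% ± 1.18 and 1.77% ± 0.548, with a product of 2.56% ± 0.323. In both tissues the pair was less frequent than the product, which was not tested.

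Among CDR3s of 12 to 16 residues, members were longer than other rearrangements and held more N bases. In blood, mean CDR3 length was 14.3 ± 0.110 residues in members and 13.96 ± 0.0180 in others (SD, n = 27 mice), higher in 27 of 27 mice (sign-flip permutation test, adjusted p = 3e-05). Members had 4.15 ± 0.316 N bases and others 3.40 ± 0.0440, higher in 26 of 27 mice (permutation adjusted p = 3e-05). Within CDR3s of 14 residues, the most used length, the values were 3.80 and 3.31 N bases, higher in 23 of 27 mice. The share of members among blood rearrangements was 0.705% at 12 residues, 0.584% at 13, 0.906% at 14, 1.13% at 15 and 1.88% at 16. Just outside the length limits it was 2.21% at 11 residues and 1.94% at 17. Length is part of the rule, so the length difference and its p describe that window alone. N bases are not independent of the rule either. An N base stood at position 6, where the rule asks for a hydrophobic residue, in 86.2% of members and 43.4% of others. The p for N bases is thus no separate evidence.

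**Figure D1:**
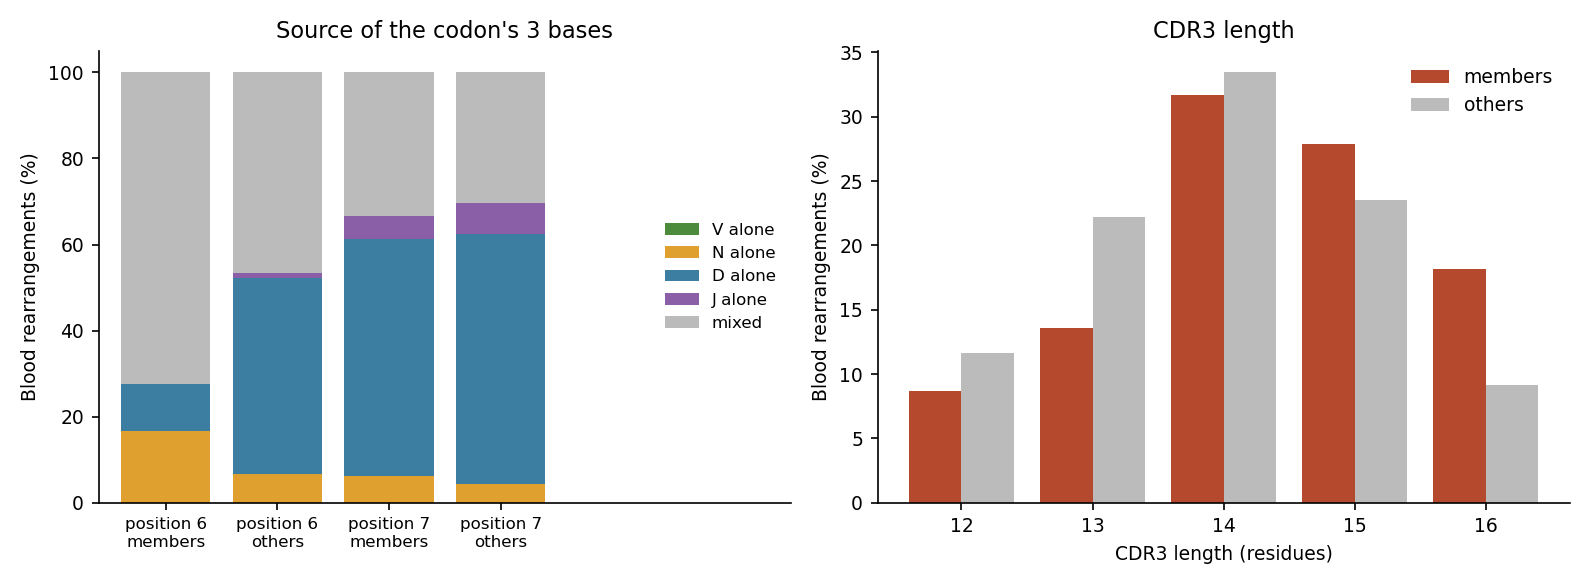
Left, percent of blood rearrangements whose codon at position 6 or 7 was made of V, N, D or J bases alone or of a mixture; right, percent at each CDR3 length in residues, for members (n = 3066) and others (n = 317930) pooled over 27 mice. At position 6, D bases alone made 10.9% of member codons and 45.7% of the others, and 18.1% of members had 16 residues against 9.16% of others.

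Segment use differed between members and other blood rearrangements. Of the 34 V, J and D segments tested, 10 were higher in members (29.4%) and 12 were lower (35.3%) at a sign-flip permutation adjusted p under 0.05 over 27 mice. The largest difference was in the D segment. TCRBD02-01 was in 78.8% of members and 32.6% of others, and TCRBD01-01 in 9.36% and 48.7%, in the same direction in all 27 mice (permutation adjusted p = 3.4e-05 for each). The rule asks for residues that TCRBD02-01 can encode and TCRBD01-01 mainly does not. The direction was thus largely given in advance by the rule, and its p adds no separate evidence. No D segment was resolved in 11.9% of members and 18.8% of others.

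In the locus, the J1 segments lie between D1 and D2 and the J2 segments beyond D2. J2 segments made up 83.4% of members and 62.4% of others. This is not independent of the D segments, since D2 lies beyond the J1 segments. TCRBJ02-07 (22.6% of members, 18.3% of others), TCRBJ02-05 (17.5%, 12.1%), TCRBJ02-01 (14.7%, 9.72%), TCRBJ02-03 (11.9%, 8.51%) and TCRBJ02-04 (11.4%, 8.11%) were higher in members. TCRBJ02-02 had 5.35% and 5.75%, with no call (permutation adjusted p = 0.487). Of the 6 J1 segments, 5 were lower in members and TCRBJ01-06 gave no call. Within CDR3s of 14 residues the calls of TCRBJ02-03 and TCRBJ02-04 were lost (differences of 1.13 and 0.187 percentage points, permutation adjusted p = 0.5258 and 0.928), and TCRBJ02-01 gave −2.75 percentage points (permutation adjusted p = 0.115). Without tyrosine in the hydrophobic set the TCRBJ02-01 difference was 0.545 in place of 4.78 and was not called (permutation adjusted p = 0.576).

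V use differed less. It is not independent of the rule, since V bases stood at position 6 in 30.5% of members and 23.1% of others. The V calls and their p values describe members under that rule. TCRBV03-01 (10.01% of members, 7.79% of others), TCRBV16-01 (7.31%, 5.49%) and TCRBV12-01 (5.97%, 4.53%) were higher in members. Within CDR3s of 14 residues none of the 3 was called, with a smaller difference for TCRBV03-01 (1.12 percentage points against 2.33) and larger ones for TCRBV16-01 (1.78 against 1.37) and TCRBV12-01 (2.20 against 1.38), at permutation adjusted p = 0.660, 0.148 and 0.115. TCRBV12-01 was also not called by templates (0.880, permutation adjusted p = 0.182) or with alanine and cysteine in the set (0.0319, permutation adjusted p = 0.922), nor was TCRBV16-01 in the latter (0.581, permutation adjusted p = 0.118). TCRBV19-01 was lower (5.81%, 7.69%, in 23 of 27 mice, permutation adjusted p = 0.000765). TCRBV13-02 was the most used V segment of members (12.4%, 10.8%) and, like TCRBV13-01 (6.03%, 5.66%), TCRBV04-01 (5.74%, 4.57%), TCRBV13-03 (5.41%, 6.12%) and TCRBV05-01 (5.28%, 6.38%), gave no call. Under other settings some of these were called. TCRBV05-01 was lower within 14 residues (−2.28 percentage points, permutation adjusted p = 0.00287), and TCRBV13-02 was higher by templates (2.04, permutation adjusted p = 0.0379). Without tyrosine, TCRBV13-02 (3.50) and TCRBV13-01 (1.98) were higher and TCRBV13-03 (−1.10) lower, and with alanine and cysteine TCRBV13-02 (12.8) and TCRBV13-01 (3.06) were higher and TCRBV05-01 (−2.47) lower. The other V segments called lower were TCRBV31-01, TCRBV01-01, TCRBV02-01, TCRBV15-01 and TCRBV17-01, none above 5% of members.

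**Figure D2:**
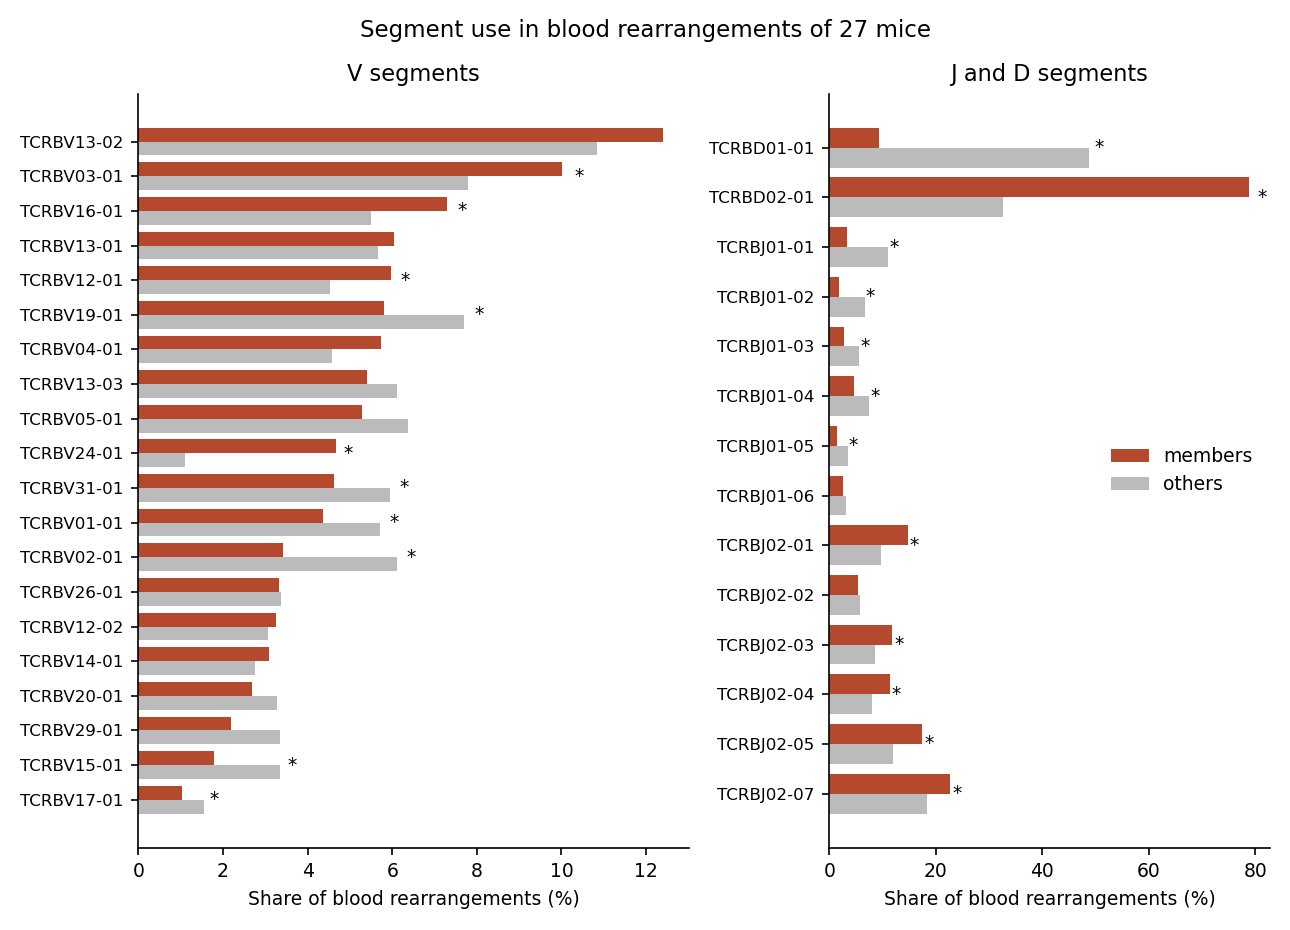
Percent of member and of other blood rearrangements that used each V segment (left) and each D and J segment (right), pooled over 27 mice; an asterisk marks a permutation adjusted p under 0.05. TCRBD02-01 was in 78.8% of members and 32.6% of others, and TCRBV24-01 in 4.66% and 1.09%.

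TCRBV24-01, named after its values were seen, stood apart in another way. It was in 4.66% of members and 1.09% of others, higher in 26 of 27 mice (permutation adjusted p = 3.4e-05). Of its 3968 rearrangements in blood and tumor, 3965 carried a stop codon in the frame of the CDR3 within the bases read before it. Such a rearrangement is listed as in frame by its CDR3 but cannot encode a complete β chain. Members made up 3.95% of TCRBV24-01 rearrangements in blood (143 of 3616, 95% Wilson interval 3.37% to 4.64%) and 4.26% in tumors (15 of 352, 2.60% to 6.91%). Rearrangements without a stop codon held 0.922% members in blood and 1.81% in tumors. Among the 404 blood rearrangements with a stop codon in another V segment, 2 were members (0.495%, interval 0.136% to 1.79%), below the share of TCRBV24-01. In blood, 145 of 3066 members (4.73%) carried a stop codon, and in tumors 15 of 476 (3.15%).

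Members were seldom shared between mice. Their CDR3 was found in another mouse for 17.9% ± 5.07 of member rearrangements and 46.8% ± 1.14 of others (SD, n = 27 mice), lower in 27 of 27 mice (permutation adjusted p = 3e-05). Within 14 residues the values were 24.2% and 52.1%, again lower in 27 of 27 mice. Of the 2986 member CDR3s, 2715 were found in 1 mouse, 196 in 2 mice and 1 in 8 mice. Those of 12 to 14 residues found in the most mice were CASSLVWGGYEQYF in 7 mice, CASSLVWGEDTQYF in 6, and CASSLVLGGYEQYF, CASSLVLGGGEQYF, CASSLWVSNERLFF, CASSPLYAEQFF, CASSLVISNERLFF and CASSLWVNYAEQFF in 5 each, of which the last 2, with the fewest templates, were named after their values were seen. None of these 8 exceeded 3 templates in a library. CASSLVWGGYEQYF was made by 6 nucleotide rearrangements with 3 V segments (TCRBV03-01, TCRBV12-01 and TCRBV16-01), and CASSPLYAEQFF by 5 with 5 V segments, each time with 1 J segment. These public members were rare in every mouse that had them.

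**Figure D3:**
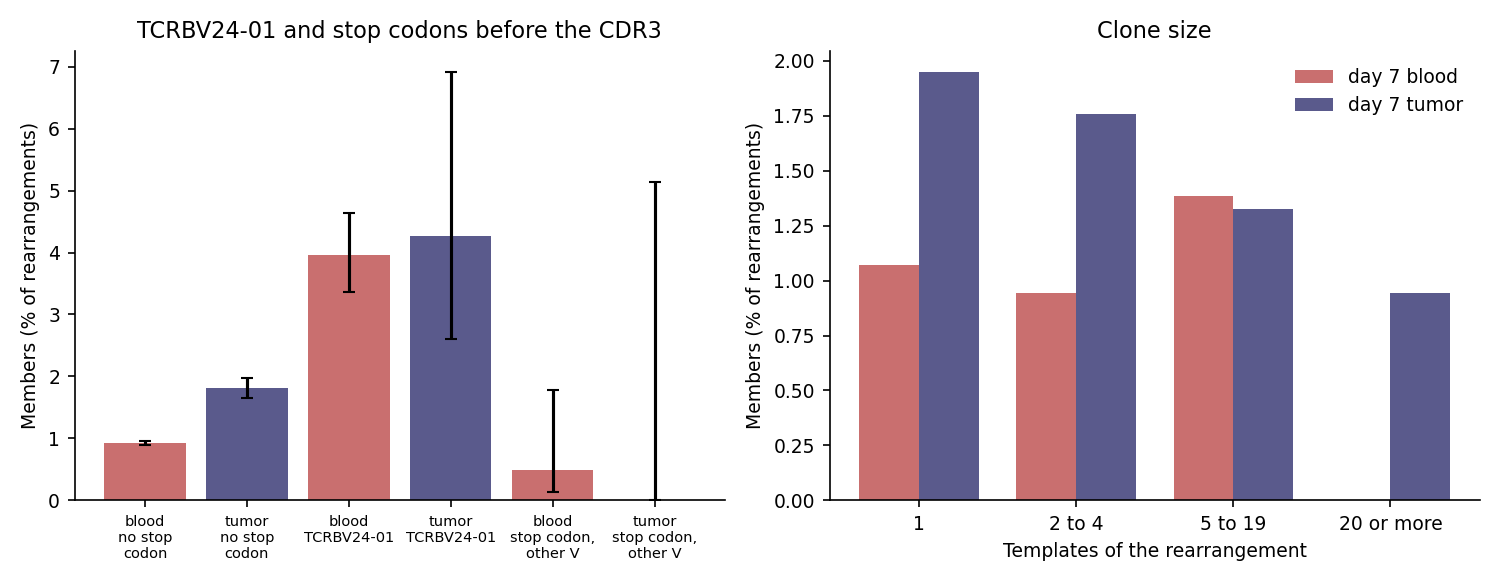
Left, percent of rearrangements that were members among those without a stop codon, those of TCRBV24-01 and those with a stop codon in another V segment, in blood and tumor, with 95% Wilson intervals; right, the same percent by templates per rearrangement in day 7 blood and day 7 tumors, pooled over mice. TCRBV24-01 stood at 3.95% in blood and 4.26% in tumors, and in tumors the percent went from 1.95% at 1 template to 0.942% at 20 or more.

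Before treatment, the share of distinct blood rearrangements that were members was near 1% in all arms. It was 0.948% ± 0.0314 in mRBC-CTRL mice (SD, n = 5), 1.00% ± 0.126 in 2.5e8 mice (n = 5) and 0.953% ± 0.235 in 1e9 mice (n = 4). On day 7 the blood had 0.951% ± 0.165 (n = 4), 1.11% ± 0.269 (n = 5) and 1.07% ± 0.287 (n = 5). The day 7 values of the 4 mRBC-CTRL mice were 0.741%, 1.10%, 1.06% and 0.901%, those of 2.5e8 mice 1.40%, 0.911%, 0.938%, 0.905% and 1.42%, and those of 1e9 mice 1.53%, 1.03%, 0.792%, 0.884% and 1.14%. The arms overlapped, and no difference between arms or days passed the test. Day 7 minus day 0 was −0.00365 percentage points in mRBC-CTRL mice, 0.112 in 2.5e8 mice and 0.00646 in 1e9 mice (exact sign-flip permutation p = 1, 0.438 and 1, where 4 mice cannot give less than 0.125 and 5 mice less than 0.0625).

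**Figure D4:**
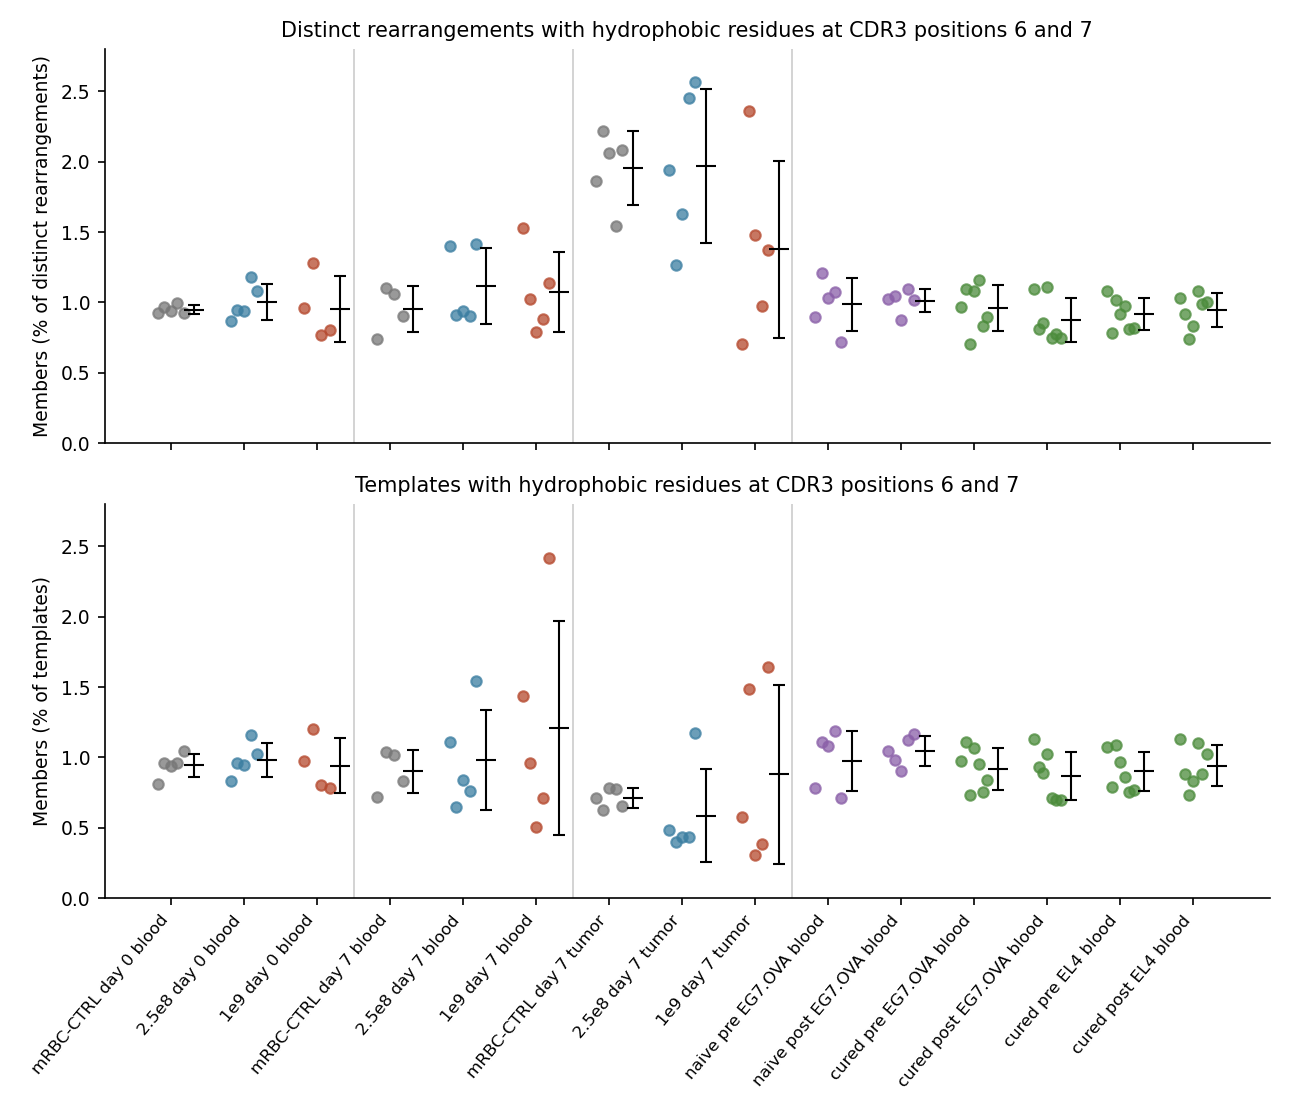
Percent of distinct rearrangements (top) and of templates (bottom) that were members in each of 81 libraries, by group, with the group mean and SD as bars. Tumors had 0.707% to 2.56% of rearrangements and blood 0.705% to 1.53%, while the template shares of tumors had a lower median (0.627%) than those of blood (0.957%).

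In day 7 tumors, the rearrangement share was 1.95% ± 0.263 in mRBC-CTRL mice, 1.97% ± 0.547 in 2.5e8 mice and 1.38% ± 0.630 in 1e9 mice (SD, n = 5 each). Single tumors had 1.87%, 2.22%, 2.06%, 1.54% and 2.09% in the mRBC-CTRL arm, 1.94%, 1.27%, 1.63%, 2.45% and 2.56% in the 2.5e8 arm, and 0.707%, 2.36%, 1.48%, 0.973% and 1.37% in the 1e9 arm. The 1e9 arm spanned the widest range and overlapped the others. The 1e9 arm minus mRBC-CTRL gave −0.576 percentage points (exact permutation p = 0.103, adjusted 0.707). Tumors of the 1e9 arm held 739 to 3912 counted templates and those of mRBC-CTRL 10106 to 22638. Thinned to 455 templates each, in a single random draw that keeps few members per library, the difference was 0.559 (exact permutation p = 0.127, adjusted 0.944). The 2.5e8 arm minus mRBC-CTRL gave 0.0162 (exact permutation p = 0.976, adjusted 1).

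Within mice, tumors had a larger share of member rearrangements than day 7 blood in 13 of 14 mice. The means were 1.76% ± 0.5677 in tumor and 1.05% ± 0.242 in blood, a mean within-mouse difference of 0.707 percentage points ± 0.640 (SD, n = 14). The permutation p was 0.0025, but adjusted over 28 share comparisons it was 0.0692 and did not pass 0.05. The difference was 1.03 ± 0.419 in mRBC-CTRL mice (4 of 4 mice higher), 0.856 ± 0.485 in 2.5e8 mice (5 of 5) and 0.305 ± 0.795 in 1e9 mice (4 of 5). In mRBC-CTRL mouse 2 the tumor had 2.22% (95% interval 1.68% to 2.93%) and the blood 0.741% (0.513% to 1.07%), and in 2.5e8 mouse 4 the tumor had 2.45% (1.30% to 4.59%) and the blood 0.905% (0.540% to 1.51%). The exception was 1e9 mouse 1, with 0.707% (0.302% to 1.64%) in tumor and 1.53% (1.13% to 2.07%) in blood. Without 1e9 mouse 1 the difference was 0.825 percentage points (permutation adjusted p = 0.00504). That mouse was the only one of the opposite sign. Leaving it out gives all other mice the same sign, so this p follows from the choice and adds no evidence.

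By templates the direction was the opposite. Members held 0.726% ± 0.421 of tumor templates and 1.04% ± 0.491 of day 7 blood templates in the same 14 mice, lower in tumor in 13 of 14, with a mean difference of −0.313 percentage points ± 0.331 (permutation p = 0.00494, adjusted 0.0692). The exception was 1e9 mouse 2, with 1.49% (95% interval 0.833% to 2.65%) in tumor and 0.963% (0.574% to 1.61%) in blood. Without 1e9 mouse 2 the difference was −0.378 (permutation adjusted p = 0.00504). This p too follows from leaving out the only mouse of the opposite sign, and adds no evidence. The rearrangement difference was 0.444 to 0.876 under 10 of the alternative settings. It was 0.226 (9 of 14 mice higher) when each library was thinned to 455 templates in a single random draw. The template difference was −0.189 without the largest other rearrangement of each library, −0.156 with the same mix of lengths in all libraries and −0.108 (6 of 14 mice higher) with the same mix of J segments, and it turned to 0.127 with the same mix of V segments (permutation adjusted p = 0.707, 0.869, 0.98 and 0.955).

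**Figure D5:**
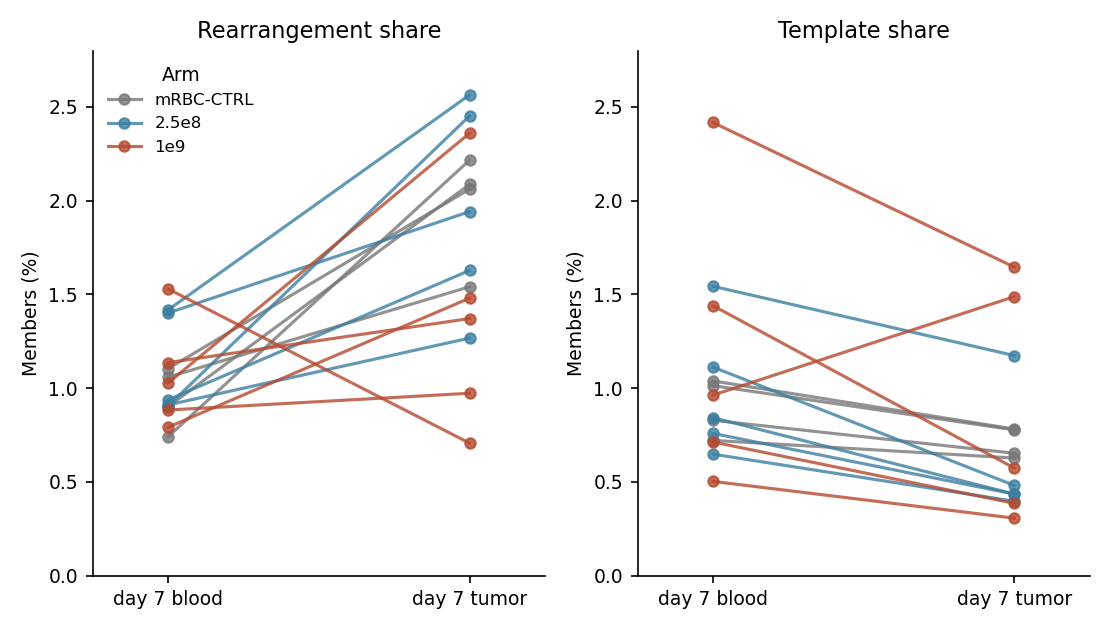
Percent of rearrangements (left) and of templates (right) that were members in day 7 blood and day 7 tumor, with 1 line per mouse (n = 14) colored by arm. The rearrangement share was higher in tumor in 13 mice and the template share lower in 13.

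The larger rearrangement share of tumors was spread over most segments and over both positions. In the 14 mice with both libraries, the member share pooled over mice was higher in tumor than in day 7 blood within 17 of 20 V segments (all but TCRBV04-01, TCRBV20-01 and TCRBV26-01), within 11 of 12 J segments (all but TCRBJ01-03) and with either D segment. Pooling weights mice by their rearrangements. As a mean over mice the counts were 15 of 20 and 10 of 12, and TCRBD01-01 was not higher. Over all 15 tumors and the blood of all 27 mice, TCRBV12-01 was in 15.3% of tumor members and 7.57% of other tumor rearrangements, against 5.97% and 4.53% in blood, and TCRBJ02-01 was in 23.9% and 11.9%, against 14.7% and 9.72%. A hydrophobic residue at position 6 was in 14.9% of tumor and 12.4% of day 7 blood rearrangements (higher in 13 of 14 mice), and at position 7 in 17.0% and 14.9% (14 of 14 mice). These were not tested, since they share the measure of the comparison above.

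Members held a smaller share of tumor templates than of tumor rearrangements. The template share was below the rearrangement share in 14 of 15 tumors, by a mean difference of −1.04 percentage points ± 0.580 (0.725% against 1.77%, SD, n = 15, permutation adjusted p = 0.000495). In blood the difference was −0.0189 ± 0.190 in treated mice (n = 15), −0.0166 ± 0.0504 in cured mice (n = 7) and 0.0101 ± 0.0713 in naive mice (n = 5), and none passed the test (permutation adjusted p = 0.874, 0.609 and 0.874). Without 1e9 mouse 5, whose day 7 blood is the smallest library, the value for treated mice was −0.0652 and passed (permutation adjusted p = 0.00466). The 10 largest rearrangements of each tumor held 29.5% to 72.8% of templates (median 50.5%), and 0 of them were members in any tumor. Members were 1.84% of all tumor rearrangements, so few would be looked for among these, and the count alone shows little. With templates so concentrated, a rare class that misses the largest clones tends to have the lower template share. No other rare class was compared. The largest member of a tumor held 0.0376% to 1.03% of templates and ranked 13 to 172, while the largest other rearrangement held 8.80% to 37.9%. Among tumor rearrangements, members were 1.95% at 1 template, 1.76% at 2 to 4, 1.33% at 5 to 19 and 0.942% (5 of 531) at 20 or more. Over all blood libraries they were 0.972% at 1 template, 0.903% at 2 to 4, 1.34% (11 of 823) at 5 to 19 and 0 of 162 at 20 or more, which allows up to 1.85%, above the pooled blood share of 0.955%.

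The exception among tumors was 1e9 mouse 5, where the template share (1.65%) exceeded the rearrangement share (1.37%). Its largest member, of 15 residues with leucine at both positions (TCRBV12-01, TCRBJ02-05), held 38 of 3707 templates (1.03%), 1 of 455 in day 7 blood and 0 of 5876 in day 0 blood. In mRBC-CTRL tumors the template shares were 0.713%, 0.627%, 0.782%, 0.777% and 0.653%, all below the matching rearrangement shares.

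Of the tumor members, 7.80% ± 15.2 were found in the blood of the same mouse, and of other tumor rearrangements 8.68% ± 4.81 (SD, n = 15), a difference of −0.879 percentage points ± 13.9 (permutation adjusted p = 0.874). The spread was wide. In 1e9 mouse 1, whose tumor held 5 members, 60% of members and 15.95% of others were found in blood, and 13 of 15 mice had a lower value for members. Without 1e9 mouse 1 the difference was −4.09 (permutation adjusted p = 0.0469), and without 1e9 mouse 3 it was 0.286 (permutation adjusted p = 0.979). In cured mice, member rearrangements of the day 65 blood were found in a later library for 0.718% ± 0.913, and others for 1.94% ± 0.358 (SD, n = 7). The value was lower in 6 of 7 mice, with an exact sign-flip permutation p of 0.0312 (adjusted 0.0562). Few members stand behind it. The member value was 0% in cured mice 2, 3, 5 and 7. In mice 1, 4 and 6 it was 2%, 1.39% and 1.64%, of 50, 72 and 61 member rearrangements.

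Single members were followed between 2 libraries of a mouse with Fisher's exact tests, which compare those libraries and not the conditions. Between tumor and day 7 blood, 646 of 2099 rearrangements tested were called higher in tumor (30.8%) and 69 lower (3.29%). Of the 26 members tested, 4 were called higher (15.4%) and 1 lower (3.85%). The 4 higher calls depended on the setting. With all productive templates as the denominator 0 members were called higher and 2 lower, and at an adjusted p under 0.01 by the same Fisher's exact test 0 were called higher. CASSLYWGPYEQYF of 2.5e8 mouse 2 had 20 of 8565 templates in tumor (0.234%), 2 of 4474 in day 7 blood and 0 of 17115 in day 0 blood (Fisher's exact adjusted p = 0.0310). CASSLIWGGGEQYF (TCRBV03-01, TCRBJ02-07) of mRBC-CTRL mouse 4 had 13 of 14535 templates in tumor and 1 of 9865 in blood (Fisher's exact adjusted p = 0.0251). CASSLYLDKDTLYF of mRBC-CTRL mouse 3 had 23 of 22638 templates in tumor and 0 of 5775 in day 7 blood, which allows up to 0.0519% (Fisher's exact adjusted p = 0.0429). It is a TCRBV24-01 rearrangement with the stop codon shown above. The fourth, of 15 residues, was in 1e9 mouse 4. None of the 4 had more than 23 templates.

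The member called lower in tumor was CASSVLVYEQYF of 1e9 mouse 5, with 10 of 3707 templates in tumor (0.270%), 9 of 455 in day 7 blood (1.98%) and 0 of 5876 in day 0 blood (Fisher's exact adjusted p = 0.00165). The blood library is the smallest of the series. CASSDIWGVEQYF (TCRBV13-01, TCRBJ02-07) of 1e9 mouse 1 was found in both tissues, with 9 of 2788 templates in tumor (0.323%) and 5 of 4166 in blood (0.120%). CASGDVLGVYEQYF (TCRBV13-02, TCRBJ02-07) of 2.5e8 mouse 5 had 11 of 5963 templates in tumor (0.184%), 5 of 2591 in day 7 blood (0.193%) and 0 of 9084 on day 0. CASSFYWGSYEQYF of mRBC-CTRL mouse 5 had 3 of 4585 templates in day 7 blood and 0 in the other 2 libraries of the mouse.

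In the rechallenge experiment the member share stayed within a narrow band. In naive mice the rearrangement share was 0.987% ± 0.188 on day 65 (SD, n = 5, single values 0.894%, 1.21%, 1.03%, 1.08% and 0.720%) and 1.01% ± 0.0817 on day 73. In cured mice it was 0.962% ± 0.163 on day 65 (lowest 0.705%, median 0.968%, highest 1.16%, n = 7), 0.876% ± 0.158 on day 73 (0.748%, 0.808%, 1.11%), 0.916% ± 0.116 on day 126 (0.784%, 0.918%, 1.08%) and 0.943% ± 0.121 on day 136 (0.740%, 0.989%, 1.08%). Cured and naive mice overlapped on both days, and the difference on day 73, −0.135 percentage points, was not past the test (exact permutation p = 0.126, adjusted 0.707). Across EG7.OVA rechallenge the change was −0.0868 ± 0.209 in cured mice (exact sign-flip permutation p = 0.344), and across EL4 challenge 0.0274 ± 0.173 (exact sign-flip permutation p = 0.688).

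Template shares were 0.920% ± 0.149, 0.868% ± 0.173, 0.901% ± 0.141 and 0.942% ± 0.147 in cured mice on the 4 days, and 0.975% ± 0.213 and 1.04% ± 0.106 in naive mice. None of the 28 share comparisons had an adjusted permutation p under 0.05, and 2 had an unadjusted p under 0.05, both of tumor against blood.

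No member was called across a challenge by Fisher's exact test at an adjusted p under 0.05. Around EG7.OVA rechallenge of cured mice, 47 of 171 rearrangements tested by Fisher's exact test were called higher (27.5%) and 2 lower (1.17%), and the 1 member tested was not called. Around EL4 challenge, 31 of 345 were called higher (8.99%) and 48 lower (13.9%), and 0 of 7 members tested were called. With a minimum of 10 templates in place of 5, 1 member was called higher around EL4 challenge. The largest member of cured mice had 15 residues with leucine at both positions (TCRBV04-01, TCRBJ02-07) and came from mouse 1, with 5 of 6966 templates on day 65, 13 of 5144 on day 73, 1 of 7284 on day 126 and 10 of 8593 on day 136. Both samples taken after a challenge had more of its templates than the samples before it, a pattern noticed after its values were seen and not tested across mice. Of 12 to 14 residues, the largest members by percent were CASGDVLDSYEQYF, with 3 templates in the day 73 blood of cured mouse 2, and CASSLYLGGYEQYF, with 3 in the day 65 blood of naive mouse 3. Neither was found in the other libraries of its mouse, which allow at most 0.0775% of templates.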

How the data were processed

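Genomic DNA of blood and tumors from 27 mice was read with the immunoSEQ assay. According to the methods, the authors amplified it in a bias-controlled multiplex PCR and collapsed and filtered the reads with the immunoSEQ analyzer 3.0. They deposited, for each nucleotide rearrangement of 87 bases, the unnormalized count of its templates, with its V, D and J segments, N bases and frame. The authors also deposited a fraction of all templates per rearrangement, which was not used. In 81 of 81 libraries the count equaled the estimated number of genomes. The reads themselves were not processed here.

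Libraries were grouped by their labels. One library titled as mouse 1 (cured, day 73) was taken as mouse 2 by its animal code, and it shared 1.15% to 1.51% of rearrangements with the libraries of that mouse and at most 0.177% with those of mouse 1. No libraries were identical. The same animal links its tumor and blood libraries and its days.

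The rearrangement share is member rearrangements over in-frame rearrangements of 12 to 16 residues, and the template share is the same for templates. Members were set against others within mice. Means of 2 groups of mice were tested by exact 2-sided permutation, and within-mouse differences with 2-sided sign-flip permutation tests (exact under 10 mice, otherwise 100000 resamples, whose smallest p is 1e-05). Benjamini-Hochberg adjustment was over 28 share comparisons, over 9 size, sharing and junction results, and over 34 segments with at least 1% of rearrangements. Single rearrangements with at least 5 templates in 2 libraries of a mouse were tested with 2-sided Fisher's exact tests, adjusted within the mouse. The clone and permutation tests were tested on simulated data. Mice are the replicates. PCR templates carry no molecular identifiers, so intervals cover counting error only. The length of a CDR3 and its residues at the positions are part of the rule, and the pair and residue percentages are a description.

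The members and lists were chosen with earlier results of these data known. CDR3s named were those of 12 to 14 residues found in most mice, the largest per group and those called, along with segments holding at least 5% of members and the 6 most used pairs. Alternatives changed the excluded CDR3s, the residue set, 1-template rearrangements, the largest clone, near variants, depth, the mix of lengths, V or J segments, the mouse-number block and each mouse in turn. Depth was changed by a single random draw of templates from each library, so the thinned values also vary with the draw. Leaving out rearrangements with a stop codon before the CDR3, and comparing sharing and N bases within 14 residues, were chosen after seeing the data. Python 3.11.15, numpy 2.4.6, pandas 2.3.3, scipy 1.17.1 and matplotlib 3.10.9 were used.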

Additional observations from a re-analysis of the deposited data

Results flagged for a closer look

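The template share of 2.5e8 tumor 5 was 1.17%, far from the other 4 tumors of its arm, whose group median was 0.435%. In 30 tests of this kind, over the groups and both shares, this was the only library so far apart. Its gap to the nearest tumor was 0.892 of the range of its arm. The limit used flags about 1 in 20 such tests by chance, and a cause was not tested. Without this tumor the 2.5e8 minus mRBC-CTRL difference was −0.274 percentage points in place of −0.126 (exact permutation p = 0.00794, adjusted 0.0741), and did not pass.

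The tumor minus day 7 blood difference of the template share was more negative in the 2.5e8 arm (−0.397 percentage points, n = 5) than in the mRBC-CTRL arm (−0.191, n = 4), by −0.206 (exact permutation p = 0.0238). Adjusted over 10 such differences the exact permutation p was 0.238, and the difference did not pass. The matching rearrangement difference was −0.169 (exact permutation p = 0.595).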

How the results depend on the processing

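Of 442 alternative values of the comparisons, 384 kept their direction and side of the threshold, and of 68 of segments 45 did. Differences are in percentage points, and most that turned were near 0 and passed no test. With both excluded CDR3s kept, template share differences were −0.0307 (1e9 minus mRBC-CTRL tumor), 0.0273 (2.5e8 minus mRBC-CTRL tumor), −0.508 (1e9 minus mRBC-CTRL day 7 blood), 0.0377 and −0.388 (cured minus naive before and after EG7.OVA), 0.120, 0.175 and −0.335 (day 7 minus day 0 in mRBC-CTRL, 2.5e8 and 1e9) and −0.525 (tumor minus blood), and rearrangement share differences −0.000284 (2.5e8 minus mRBC-CTRL tumor), −0.0127 (day 7 minus day 0, 1e9) and 0.654 (tumor minus blood). These template shares include templates of OT-1 cells and of the lymphoma clone in the denominator. The mean template share of the 14 mice was then 0.181% in tumor in place of 0.726%, and 0.706% in day 7 blood in place of 1.04%. Of these differences, the tumor minus blood values and −0.388 passed the threshold.

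Without tyrosine in the set, template differences were 0.0486 (EG7.OVA, cured) and −0.0379 (day 126 minus 73), and rearrangement differences −0.108 (2.5e8 minus mRBC-CTRL tumor), 0.0188, −0.00239 and −0.00653 (EG7.OVA, day 126 minus 73 and EL4, cured). In that set TCRBJ02-02 gave 0.250 and TCRBJ02-01 lost its call. With alanine and cysteine added, they were −0.923 (template, tumor minus blood, past the threshold), −0.152 (1e9, day 7 minus 0), −0.106 (EG7.OVA, naive) and −0.0764 (day 126 minus 73), and for rearrangements −0.311 (2.5e8 minus mRBC-CTRL tumor), 0.876 (tumor minus blood, past the threshold) and −0.0915 (EG7.OVA, naive). In that set the blood size difference of treated mice (−0.130) and the recovery of members in later blood (−0.624) passed, TCRBV04-01 gave −1.33 and TCRBV13-03 0.552. Without 1-template rearrangements, values were −0.488 (template, tumor minus blood, past the threshold), 0.0134 (template, EG7.OVA, cured) and −0.102 (rearrangement, 2.5e8 minus mRBC-CTRL tumor). Without the largest other rearrangement, the template difference of 2.5e8 day 7 minus 0 was 0.0425 and the size difference of treated blood 0.0109.

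Thinned to 455 templates, template differences were 0.220 (2.5e8 minus mRBC-CTRL tumor), −0.198 (2.5e8 minus mRBC-CTRL day 7 blood), 0.0188 (cured minus naive before EG7.OVA), 0.264 (2.5e8, day 7 minus 0), 0.0942, −0.345 and −0.0314 (EG7.OVA, day 126 minus 73 and EL4, cured), and rearrangement differences 0.559 (1e9 minus mRBC-CTRL tumor), −0.144 (2.5e8 minus mRBC-CTRL day 7 blood), 0.0606 and 0.0555 (cured minus naive before and after EG7.OVA), 0.125, −0.384 and −0.0279 (EG7.OVA, day 126 minus 73 and EL4, cured). With J use standardised, 2.5e8 and 1e9 day 7 minus 0 were 0.0252 (template) and −0.00981 (rearrangement). With V use standardised, tumor minus blood by templates was 0.127 and 2.5e8 day 7 minus 0 was 0.00327. Without stop-codon rearrangements, mRBC-CTRL day 7 minus 0 was 0.00796 (rearrangement). Within 14 residues, TCRBJ02-01 gave −2.75, TCRBV13-03 0.686, and 12 segments were called, and by templates TCRBJ02-02 gave 0.0472. Clones called gave 1 member higher around EL4 with a minimum of 10 templates, 0 members higher in tumor at an adjusted p under 0.01, and 0 higher and 2 lower with all productive templates as the denominator. The causes were not tested.

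Mice of different arms share only a number, and their correlations ran from −0.945 to 0.745. In a fit by mouse number, used as a replicate block, the rearrangement share before EG7.OVA, cured minus naive, was 0.0153. Without the replicate block of the mouse, tumor minus blood was 0.707 (permutation adjusted p = 0.00728). The block changed no other direction or call.

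Leaving out 1 mouse at a time, template differences ran from −0.0219 to 0.313 (1e9 minus mRBC-CTRL tumor), −0.0601 to 0.164 (2.5e8 minus mRBC-CTRL day 7 blood), −0.378 to −0.271 (tumor minus blood), −0.133 to 0.0981 and −0.268 to 0.510 (2.5e8 and 1e9, day 7 minus 0) and −0.0279 to 0.130 (EG7.OVA, naive). Rearrangement differences ran from −0.132 to 0.192 (2.5e8 minus mRBC-CTRL tumor), −0.0912 to 0.0318 (cured minus naive before EG7.OVA), 0.643 to 0.825 (tumor minus blood), −0.0598 to 0.0702 and −0.103 to 0.172 (mRBC-CTRL and 1e9, day 7 minus 0) and −0.0447 to 0.0711 (EG7.OVA, naive). Those that kept their direction but moved widely were the rearrangement changes of 2.5e8 day 7 minus 0 (0.00672 to 0.209) and of cured mice across EG7.OVA (−0.126 to −0.0325) and EL4 (0.000685 to 0.0786), none called. Size differences ran from −0.0652 to −0.00696 (treated blood) and −0.00530 to 0.0340 (naive blood), recovery of tumor members in blood from −4.09 to 0.286, and members called lower in tumor from 0 to 1, with 0 without 1e9 mouse 5.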
